A study of Schizosaccharomyces pombe with 16 samples.

Results

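The comparison asks how far the transcriptome of a fission yeast (Schizosaccharomyces pombe) strain with changes at 2 serines of RNA polymerase II departs from the sum of the changes seen with each serine altered alone. It uses 13 of the 16 arrays of the series, 4 of S2A, 4 of S7A and 5 of S2A/S7A, chosen by their labelled genotype. The 3 arrays of S7E are given beside them and take no part in the contrast. The altered heptads of the C-terminal domain (CTD) of rpb1 had alanine as the second residue in S2A, as the seventh in S7A and at both places in S2A/S7A, while S7E had glutamate as the seventh. All 4 mutants had 14 such heptads after 18 rump repeats, as the labels give them. The replicates were separate cultures in YES, a rich medium, collected in mid-log growth, and each mutant was hybridised against wild type (WT) in the other colour. The labels give neither the mating type of the strains nor whether arrays shared a WT culture.

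The CTD extends from Rpb1, the catalytic subunit of the polymerase, and repeats a heptad many times. Kinases and phosphatases change the phosphorylation of its serines as the enzyme moves from promoter to terminator, and the marks recruit factors for capping, elongation, splicing and 3′ end formation. Serine 2 phosphorylation is known mainly from the elongating enzyme, and in fission yeast it is linked to the induction of sexual differentiation genes through ste11. Serine 7 phosphorylation is linked to transcription of small RNAs in mammals, and fission yeast tolerates its loss.

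Values are log2 ratios of the mutant to WT. Base and direction are taken as likely, because the sources state neither. The value of a gene is the mean of its exon probes, nearly always 1 probe. Non-additivity is the S2A/S7A value minus the S2A value minus the S7A value, so 0 means that the 2 changes added up on the log2 scale, and a positive value means that RNA in S2A/S7A lay above the sum. A difference from WT that all strains share, such as a background difference between the strains, enters the sum once too often, so it cannot be told apart from non-additivity in genes that moved alike in both single mutants. Values after ± are standard errors (SE) of the limma fit, and a gene is called where p, adjusted by Benjamini-Hochberg across the whole table, is under 0.05. Between 13061 and 14918 probes had a value on each array. Arrays of 1 group correlated across genes at r from 0.567 to 0.913 in S7A, 0.659 to 0.981 in S2A and 0.881 to 0.966 in S2A/S7A, and S7A replicate 4, S2A replicate 4 and S7E replicate 1 stood apart from their groups with array weights of 0.28, 0.115 and 0.139. Precision is limited by how many arrays there are.

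Of 5163 genes, 1363 departed from the sum (26.4%). Of these, 702 lay above the sum (13.6%) and 661 below it (12.8%). The median over all genes was 0.011, and 5% of genes lay below -0.51 and 5% above 0.57. At least 1.5-fold from the sum were 390 genes (7.55%), 226 higher and 164 lower, and 107 were at least 2-fold from it. For comparison, 58.3% of genes differed from WT in S2A, 34.6% in S7A and 62.9% in S2A/S7A, while S2A/S7A differed from S2A in 23.3% and from S7A in 41.6%. Without the 3 arrays that stood apart the number of non-additive genes was 2101.

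**Figure D1:**
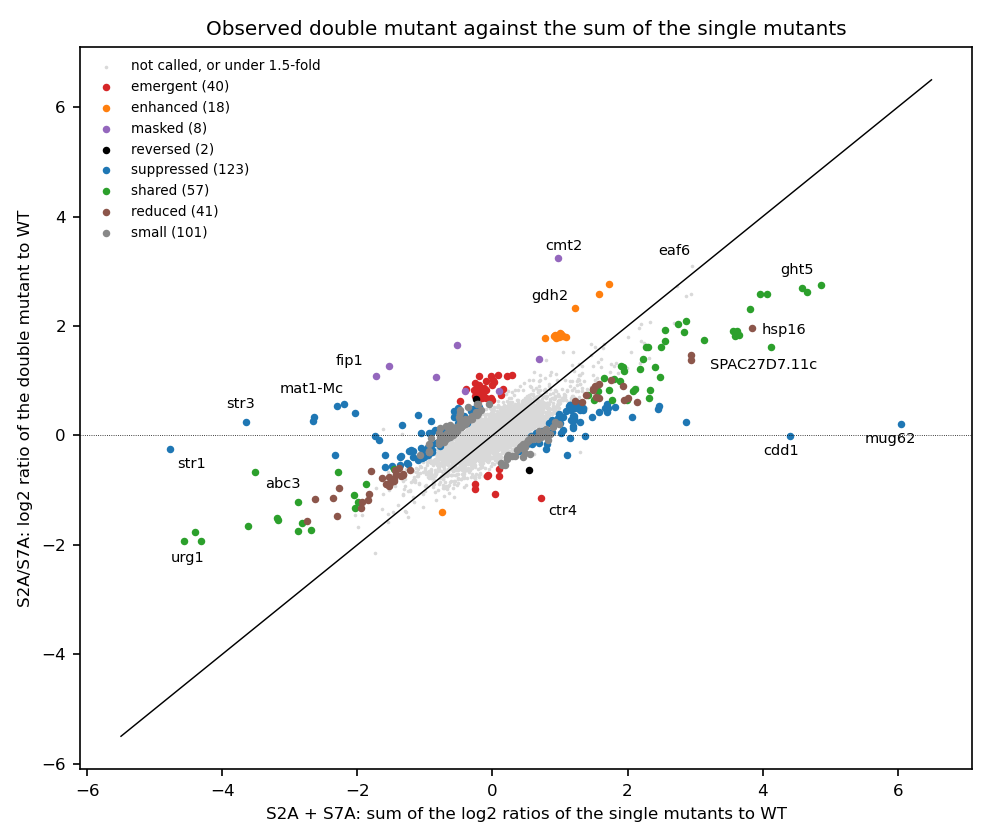
Each point is 1 of the 5163 genes, with the sum of the S2A and S7A log2 ratios on the horizontal axis and the S2A/S7A log2 ratio on the vertical axis. The diagonal is additivity; the 390 genes at least 1.5-fold from it are coloured by pattern, and the points far to the left and right lie nearer to 0 than the diagonal.

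The 390 genes were sorted by which strains differed from WT by at least 1.5-fold (0.585 on the log2 scale). In 123 suppressed genes 1 or both single mutants passed that size and S2A/S7A did not. In 57 shared genes both single mutants and S2A/S7A passed it in the same direction, S2A/S7A by less than the sum. In 41 reduced genes 1 single mutant passed it and S2A/S7A passed it with the same sign, at less than the sum. In 8 masked genes the single mutants moved in opposite directions and S2A/S7A followed one of them. In 2 reversed genes S2A/S7A took the sign opposite to the single mutant that had moved. Synergy was counted in the emergent and enhanced genes. The 40 emergent genes passed the size in S2A/S7A alone. In 18 enhanced genes S2A/S7A went past the sum in the direction of a single mutant, and 13 of these are near-identical Tf2 copies. The classes use the same fitted values as the contrast. An error in a single mutant value therefore favours suppressed, shared or reduced over enhanced, so the counts do not rank the outcomes. The remaining 101 small genes passed 1.5-fold in none of the 3 strains. In 65 of these the single mutants summed to a fall (median -0.31 in each) and S2A/S7A lay slightly above WT (median 0.14). In each of the 390 genes every measured S2A/S7A array lay on the same side of the sum of the single mutant means, which the call itself favours.

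**Figure D2:**
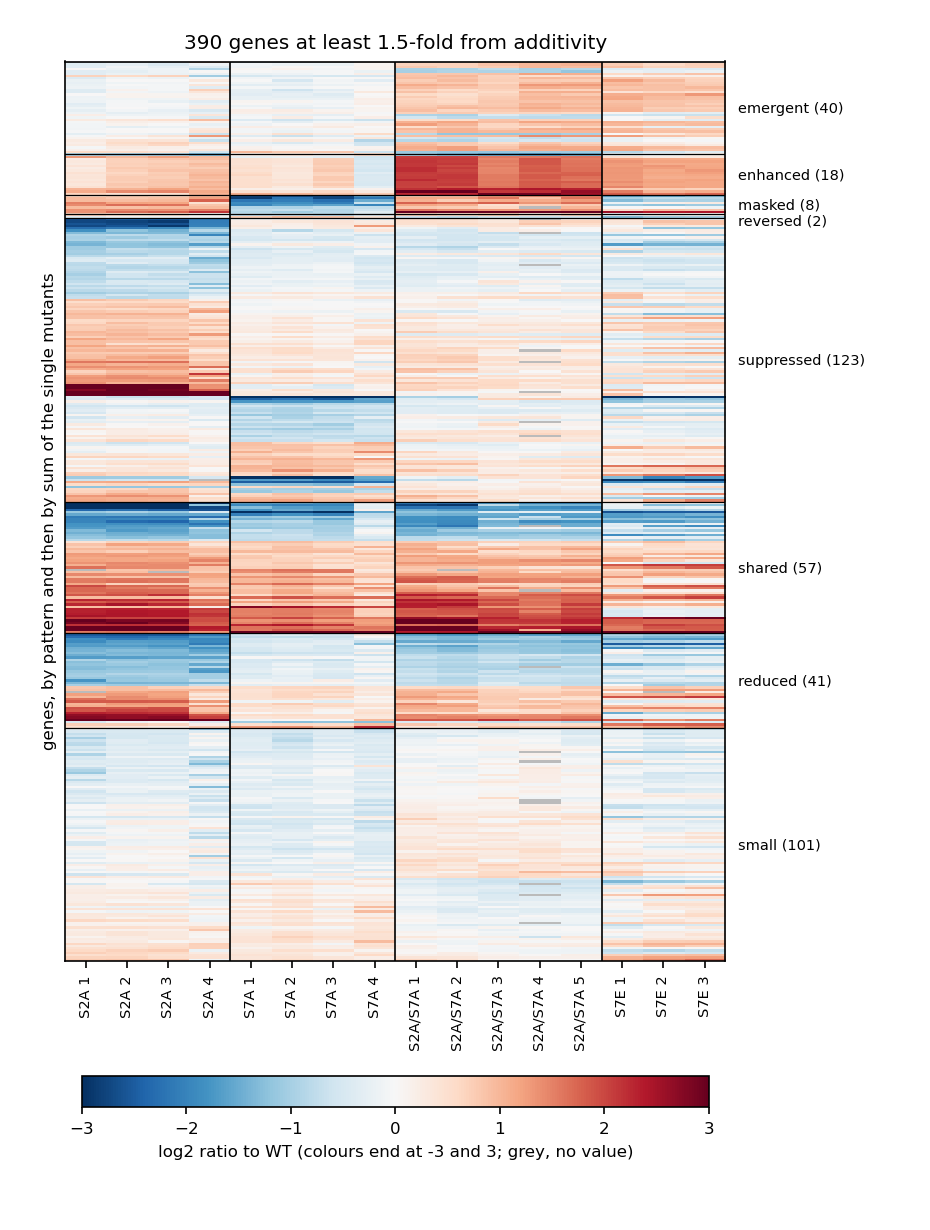
Rows are the 390 genes at least 1.5-fold from additivity, grouped by pattern, and columns are the 16 arrays, coloured by the log2 ratio to WT. The suppressed block is strong in S2A or S7A and pale in S2A/S7A, the emergent block is strong in S2A/S7A and S7E, and S2A replicate 4 and S7A replicate 4 are paler than their groups in many rows.

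Among the suppressed genes, 77 had moved in S2A alone, 35 in S7A alone and 11 in both. Those that S2A alone had raised (42 genes) had medians of 0.86 in S2A, 0.21 in S7A and 0.32 in S2A/S7A, and S2A/S7A differed from S2A in 36 of them. Those that S2A alone had lowered (35 genes) had medians of -0.80, -0.24 and -0.27, and 32 differed between S2A/S7A and S2A. S7A alone had raised 15 (medians 0.21 in S2A, 0.80 in S7A, 0.25 in S2A/S7A) and lowered 20 (medians -0.10, -0.76 and 0.01), and S2A/S7A differed from S7A in 12 and 20 of these. In 13 of the 123, S2A/S7A differed from neither single mutant by the test. Some of the 11 that had moved in both single mutants did so in opposite directions, so that additivity itself places S2A/S7A nearer to WT. An example is ste11, at -1.12 in S2A and 0.69 in S7A, with a sum of -0.43.

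The 2 highest values of S2A were lost in S2A/S7A. The exon probe of mug62 (SPAC22F3.04), a gene named for its rise in meiosis, read 6.18, 5.96, 6.10 and 4.70 in S2A, 0.30 to 0.36 in S7A and 0.13, 0.09, 0.27, 0.38 and 0.21 in S2A/S7A. All S2A arrays lay far above the other strains, and S2A/S7A overlapped S7A. Non-additivity was -5.84 ± 0.31 (57.3-fold below the sum, adjusted p = 2.23e-08). cdd1 (SPAC1556.04c), encoding cytidine deaminase, read 4.33, 4.23, 4.09 and 3.78 in S2A, 0.23 to 0.37 in S7A and -0.11, 0.08, -0.06 and 0.05 on the 4 S2A/S7A arrays with a value. Here too the S2A arrays stood alone, with non-additivity of -4.41 ± 0.13 (21.3-fold, adjusted p = 4.06e-11). Both results rest on exon probes: the measured intron of mug62 read 0.009 in S2A, and the 3 junction probes of cdd1 read 0.026, 0.093 and 0.23 there. SPBC2A9.13 had the same form, at 2.61 in S2A and 0.24 in S2A/S7A. RNA came from whole cultures, so fewer cells that hold an RNA and less of it per cell cannot be told apart.

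Some genes of the M mating type had the matching pattern on the low side. mat1-Mc, which encodes the M-specific transcription factor, read -2.59, -2.70, -2.62 and -2.04 in S2A, 0.20 to 0.37 in S7A, and 0.47, 0.57, 0.47, 0.83 and 0.55 in S2A/S7A. S2A lay below all other arrays, and S2A/S7A lay above S7A on every array. Its non-additivity was 2.78 ± 0.16 (adjusted p = 5.93e-08). The copy at the silent locus, mat3-Mc, was nearly the same (-2.61 in S2A, 0.31 in S7A, 0.53 in S2A/S7A, non-additivity 2.83 ± 0.18), and the 2 probes may not tell the copies apart. mfm2, a gene for the M-factor pheromone precursor, read -2.56 in S2A and 0.40 in S2A/S7A (2.44 ± 0.24), whereas mfm1 (0.09 in S2A) and mfm3 (0.07) were not called. SPBC23G7.10c fell with them (-2.40 in S2A, 0.34 in S2A/S7A). Other M-cell genes were not low in S2A: mam2, for the receptor of the P-factor pheromone, was raised in all 3 strains (0.77, 0.79 and 0.81) and lay below the sum (-0.75 ± 0.12), and sxa2, for the protease that degrades P-factor, was at 0.58 in S2A with a non-additivity of -0.43 that was not called. Of the 11 M-cell mating genes, 4 lay above the sum and 1 below, 45.5% called beside 26.4% of all genes. The genes between the mat1 and mat3 loci, looked at after their values were seen, moved with them. Over all genes 13.6% lay above the sum and 12.8% below it. Of the 10 genes measured from mat1-Mi to mat3-Mc in the order of the reference table, 9 lay above the sum and 0 below. They include genes with no role in mating, such as rpt6, for a subunit of the proteasome, which read -1.04, -1.0, -0.86 and -0.32 in S2A, -0.45 to -0.04 in S7A and 0.21 to 0.59 in S2A/S7A (non-additivity 1.48 ± 0.16), and rpp202, for a ribosomal P protein (1.60 ± 0.29). SPBC23G7.13c was raised in S2A/S7A and S7E (0.92 and 0.93) and near 0 in both alanine single mutants. A difference in mating type or in this region between the S2A strain and the others cannot be told apart from an effect of the allele here.

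Ste11 drives sexual differentiation genes and serine 2 is its known link to the CTD. ste11 read -1.20, -1.16, -1.14 and -0.96 in S2A, 0.59, 0.64, 0.51 and 1.01 in S7A, and 0.42, 0.25, 0.09, 0.19 and 0.04 in S2A/S7A. The 3 groups did not overlap, with S2A/S7A between the single mutants and above their sum by 0.63 ± 0.13 (adjusted p = 0.00289). That call was lost when the arrays were scaled to 1 spread (0.27, adjusted p = 0.117). Of the 14 genes of the list, ste4 (an adaptor of the pheromone MAP kinase pathway, 0.49), ste11 and gpa1 (a G protein subunit, 0.54) lay above the sum and ste7 below it (-0.76 ± 0.14), 28.6% called beside 26.4% of all genes. Over all its probes ste4 lost the call (0.21, adjusted p = 0.285). The median of the list was 0.055. mei2, the master regulator of meiosis, was not called. It was -0.78 in S2A, 1.66 in S7A and 0.49 in S2A/S7A (non-additivity -0.39 ± 0.36, adjusted p = 0.446), with S7A replicate 4 at 2.97 against 1.09 to 1.43 on the other 3. It was called at -1.10 when arrays were scaled.

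The S7A changes that S2A/S7A did not show were led by iron uptake. In fission yeast the repressor Fep1 turns these genes off when iron is plentiful. str1 encodes the transporter of the siderophore ferrichrome. It read -4.46, -4.47, -4.68 and -3.31 in S7A, -0.36 to -0.67 in S2A, and -0.96, -1.02, 0.30, 0.07 and 0.27 in S2A/S7A. All S2A/S7A arrays lay more than 2 log2 units above the highest S7A array, and S2A/S7A replicates 1 and 2 lay below replicates 3 to 5. Non-additivity was 4.52 ± 0.37 (23.0-fold above the sum, adjusted p = 1.29e-06), and S7E, with only the glutamate change, stayed low (-3.01). The heme transporter gene str3 read -3.06, -3.20, -3.07 and -1.53 in S7A, -1.08, -1.08, -1.06 and -0.51 in S2A, and -0.13, -0.28, 0.43, 0.41 and 0.65 in S2A/S7A. Although both single mutants were lower than WT, the S2A/S7A arrays lay above all of theirs, with non-additivity of 3.89 ± 0.36. frp1, a ferric reductase gene, behaved like str1 (-2.23 in S7A, -0.43 in S2A, 0.27 in S2A/S7A, non-additivity 2.93 ± 0.34), and its S2A/S7A replicates 1 and 2 (-0.37 and -0.51) again lay below the other 3 (0.69 to 0.78).

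The reductive iron uptake pair was masked. fip1, the iron permease gene, read 0.57, 0.74, 0.63 and 0.95 in S2A, -2.76, -2.66, -2.69 and -1.70 in S7A, and 0.67, 0.75, 1.22, 1.36 and 1.40 in S2A/S7A. S2A/S7A overlapped S2A and not S7A: it differed from S7A (adjusted p = 1.31e-08), and from S2A with an adjusted p of 0.226. Its non-additivity was 2.82 ± 0.26. fio1, the ferroxidase gene that shares a promoter region with fip1, read 0.80 to 1.20 in S2A, -2.86 to -2.14 in S7A and 0.87 to 1.60 in S2A/S7A, with non-additivity of 2.80 ± 0.22. In S7E both lay below WT (-1.46 and -0.84). abc3, encoding a vacuolar membrane transporter, fell in all 3 strains and counted as shared: -0.93 in S2A, -2.59 in S7A, -0.66 in S2A/S7A and -2.52 in S7E, with non-additivity of 2.85 ± 0.36. shu1, for heme uptake at the cell surface, was the exception. It was raised in S2A (1.29), near 0.44 in S7A, and at 3.30, 3.54, 2.13, 2.22 and 2.64 in S2A/S7A, 1.03 ± 0.31 above the sum (adjusted p = 0.0231; 0.0528 without S7A replicate 2).

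Of the 11 iron uptake genes, 7 lay above the sum and str2 below it (-0.30), with sib1, sib2 and frp2 not called. That is 72.7% called, beside 26.4% of all genes. The median non-additivity of the list was 2.80, beside 0.011 over all genes, and 6 or 7 genes lay above the sum under each alternative that kept both dye orientations. Iron-using genes and their regulators did not show the same form: 3 lay above and 4 below of 14 (50% called), with a median of -0.19. Among them php4, the subunit that lowers iron-using genes when iron is scarce, read -0.65, -0.53, -0.62 and -0.75 in S7A and -0.01, 0.00, 0.27 and 0.14 on the 4 measured S2A/S7A arrays (non-additivity 0.95 ± 0.11, adjusted p = 2.63e-05). hem1, for the first step of heme synthesis, lay above the sum (0.47) and leu2, an iron-sulfur enzyme gene of leucine synthesis, below it (-0.30; its call was lost without S2A replicate 3).

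**Figure D3:**
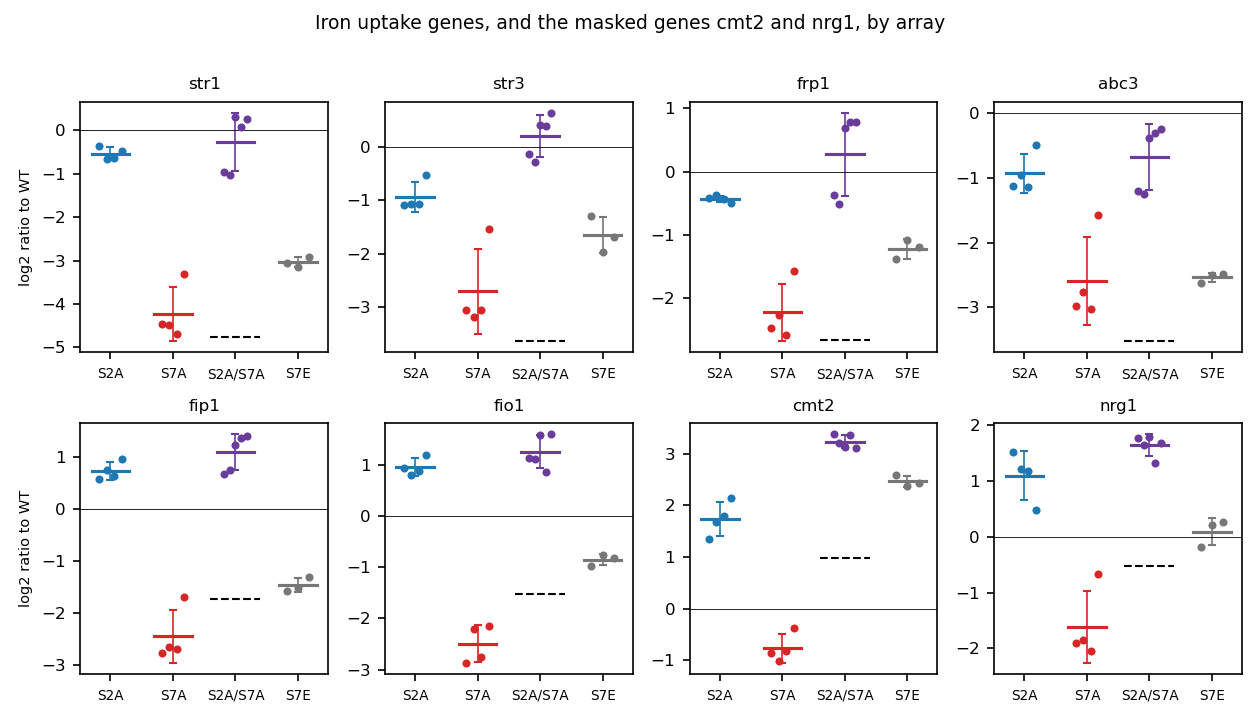
Each panel shows 1 gene, with a point per array, the mean as a bar and the SD as an error bar; the vertical axis is the log2 ratio to WT, and the dashed line over S2A/S7A is the sum of the S2A and S7A means. In all 8 genes the S2A/S7A points lie above the dashed line, and in str1, frp1 and abc3 they fall into 2 levels.

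The other masked genes also took the sign of S2A, as did all 8. cmt2 (SPBPB21E7.04c), a subtelomeric gene, read 1.35, 1.67, 1.79 and 2.14 in S2A, -0.86, -1.01, -0.82 and -0.37 in S7A, and 3.37, 3.21, 3.12, 3.36 and 3.11 in S2A/S7A. The groups did not overlap and S2A/S7A lay above both, although S7A alone was below WT (non-additivity 2.27 ± 0.18, adjusted p = 8.06e-07; S7E 2.48). nrg1 (SPBPB2B2.01) read 1.51, 1.21, 1.18 and 0.47 in S2A, -1.90, -1.84, -2.06 and -0.67 in S7A and 1.31 to 1.79 in S2A/S7A (2.17 ± 0.32). The others were gdt1 (1.39, -1.80 and 0.82 in S2A, S7A and S2A/S7A), SPAPB18E9.04c (1.16, -1.99 and 1.07), SPAPB24D3.07c and SPACUNK4.09. S2A/S7A differed from S7A in all 8 and from S2A in 2. No masked gene followed S7A. The 2 reversed genes had moved in S7A. SPAC3G6.05 read 0.71 in S7A and -0.64 in S2A/S7A (non-additivity -1.18 ± 0.11), with S7E at -1.11. Its 3 junction probes had non-additivity of -0.68, -0.47 and -0.44. They read -0.48, -0.39 and -0.30 in S2A/S7A, under 1.5-fold, and -0.49, -0.50 and -0.37 in S2A. Its place among the reversed genes thus rests on the exon probe. mug94 read -0.71 in S7A and 0.66 in S2A/S7A (0.90 ± 0.16).

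Phosphate acquisition genes split into a pair of patterns. pho1, the secreted acid phosphatase gene, read 2.75, 2.49, 2.23 and 2.00 in S7A, 0.91, 0.90, 0.98 and 0.26 in S2A, and 2.32, 2.09, 1.33, 1.38 and 1.69 in S2A/S7A. It was raised in all 3 strains, and S2A/S7A lay mostly between the single mutants, 1.38 ± 0.26 below the sum (adjusted p = 0.00167). The phosphate transporter genes pho84 and pho842 passed 1.5-fold in S7A only (1.01 and 0.80) and lay at 0.25 and -0.28 in S2A/S7A. So were vtc4 and vtc2, which encode subunits of the polyphosphate synthase and are in no list: they were at 0.99 to 1.33 and 0.88 to 0.95 in S7A and at -0.17 to 0.43 and -0.35 to 0.08 in S2A/S7A. tgp1, a glycerophosphodiester transporter gene, was raised in all 3 strains and not called (0.68, 0.87 and 1.35, non-additivity -0.21 ± 0.13). Of the 8 genes of the list, 3 lay below the sum and csk1 above it, 50% called beside 26.4% of all genes.

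Small nucleolar RNAs guide the modification and cleavage of ribosomal RNA, and this group was looked at after its values were seen. Of 26 measured, 7 lay above the sum and 0 below, 26.9% beside 26.4% of all genes, so the share itself was that of the background. Most of the called RNAs were lowest in S7A. snoZ4 read -0.92, -1.03, -0.82 and -0.84 in S7A, -0.16 to -0.39 in S2A and -0.15 to -0.39 in S2A/S7A (non-additivity 0.94 ± 0.089). snoZ3, snoZ5, snoZ7, snoZ8 and snoR38 lay at -1.19 to -0.46 in S7A and at -0.63 to -0.25 in S2A/S7A, and snoR39a at -0.14 and 0.14.

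The shared genes lay on the same side of WT in both single mutants and in S2A/S7A, short of the sum. They held some of the highest and lowest values of the series. In such genes a difference from WT that all strains share cannot be told apart from non-additivity. The 40 raised genes had medians of 1.44 in S2A, 0.88 in S7A, 1.51 in S2A/S7A and 0.81 in S7E, and the 17 lowered genes -1.69, -0.96, -1.50 and -1.0. S2A/S7A differed from S2A in 16 of the 57 and from S7A in 37. The urg genes, which respond to uracil, were the clearest lowered group. urg1 read -3.43, -3.49, -3.45 and -3.06 in S2A, -1.56, -1.50, -1.64 and -0.15 in S7A, and -2.07, -2.15, -1.72, -1.89 and -1.90 in S2A/S7A, with no overlap of the 3 groups. S2A/S7A was thus less low than S2A (adjusted p = 3.56e-04) and lower than S7A (0.0176), 2.65 ± 0.28 above the sum, while S7E was at 0.081. urg2 (2.39 ± 0.25) and urg3 (1.23 ± 0.18) also lay above the sum, 3 of 3 beside 13.6% of all genes. For urg3, at -1.92 in S2A and -1.60 in S2A/S7A, the difference between these strains did not pass the test (adjusted p = 0.123).

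Several transporter genes for nitrogen sources fell in S2A, S7A and S2A/S7A. isp4, an oligopeptide transporter gene, read -1.55 to -1.50 in S2A, -2.05, -1.83, -2.02 and -0.78 in S7A, -1.67 to -1.37 in S2A/S7A and -1.66 to -1.39 in S7E. The groups overlapped throughout, and non-additivity was 1.69 ± 0.24. put4, a proline permease gene, was -2.12, -0.76 and -1.75 in S2A, S7A and S2A/S7A (1.13 ± 0.17), and the permease genes isp5 and aat1 and the gene isp7 were shared as well. Of the 15 genes of nitrogen starvation and amino acid uptake, 6 lay above the sum and 3 below, with a median of 0.073. That is 60% called, beside 26.4% of all genes. inv1, for invertase, lay below (-0.78 ± 0.11). alr2, an alanine racemase gene, was lower in each strain (-2.89, -1.52 and -1.77), but its replicates spread widely (-2.89 to -0.79 in S2A/S7A, and S7A replicate 4 at -0.22 against -2.02 to -1.88), with non-additivity of 2.64 ± 0.62.

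Among the raised shared genes, ght5, which encodes the high-affinity glucose transporter, read 1.55, 1.61, 1.52 and 1.27 in S2A, 3.34, 3.05, 3.08 and 4.00 in S7A, 2.38, 2.42, 3.16, 2.84 and 2.94 in S2A/S7A and 3.97 to 4.32 in S7E. S2A/S7A lay above S2A (adjusted p = 3.12e-04) and below S7A (0.0183), 2.10 ± 0.24 below the sum. ght1 (0.47, 1.48 and 0.65) and ght3 (0.21, 0.97 and 0.52), 2 further hexose transporter genes, lay 1.29 ± 0.26 and 0.67 ± 0.17 below it. Of the 13 hexose transporter and glucose-repressed genes, 4 lay below the sum and 0 above (30.8% called, near the 26.4% of all genes). SPAC27D7.11c read 1.77 to 2.20 in S2A, 1.31 to 2.40 in S7A, 1.51 to 1.72 in S2A/S7A and 1.73 to 2.08 in S7E, a narrow range for all strains (non-additivity -2.51 ± 0.19). Its neighbours by name, SPAC27D7.09c and SPAC27D7.10c, were at 2.68 in S2A and at 0.49 and 0.54 in S2A/S7A.

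Chromosome ends carried many shared genes, and the title of the series names them. tlh1 and tlh2, near-identical helicase genes linked to telomeres whose probes may not tell them apart, were high in all strains. tlh1 read 3.22, 3.15, 3.19 and 2.37 in S2A, 1.49 to 1.65 in S7A, 3.27, 3.24, 2.25, 2.36 and 2.45 in S2A/S7A and 1.52 to 1.86 in S7E. S2A/S7A overlapped S2A and lay above S7A (adjusted p = 0.001), 1.87 ± 0.27 below the sum, and tlh2 lay 2.04 ± 0.46 below it. ftm1 was 2.36, 1.29 and 1.83 (-1.81 ± 0.17), with S7E at -0.34. Of the 122 genes measured in the outer 100 kb of chromosomes I and II, 61 were called, 26 above and 35 below the sum, and 38 were called and at least 1.5-fold from it. Over all genes 26.4% were called, 13.6% above and 12.8% below, and 7.55% were called and at least 1.5-fold from the sum. The 122, among 5163 genes tested, made up 21 of the 57 shared genes, 8 of the 123 suppressed and 3 of the 8 masked. They also made up 3 of the 18 enhanced, 2 of the 101 small, 1 of the 40 emergent and 0 of the 41 reduced. Some of these may be 1 measurement repeated. The shared genes ftm1, ftm4, ftm5 and SPBPB2B2.19c read 2.27 to 2.36 in S2A, 1.29 to 1.31 in S7A and 1.82 to 1.91 in S2A/S7A. The median over the 122 was 0.75 in S2A, 0.38 in S7A, 0.82 in S2A/S7A and -0.19 for non-additivity.

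Several stress genes raised in S2A were raised less, or not, in S2A/S7A. hsp16, a small heat shock protein gene, read 3.58, 3.88, 3.84 and 3.14 in S2A, -0.11, 0.04, -0.02 and 1.00 in S7A, and 1.88, 1.88, 2.18, 1.86 and 1.94 in S2A/S7A. The groups did not overlap: S2A/S7A lay below S2A (adjusted p = 5.52e-05) and above S7A (9.66e-06), 1.88 ± 0.25 below the sum. The chaperone genes hsp78 (0.97 in S2A, -0.046 in S2A/S7A) and psi1 (1.18 and 0.42) were suppressed, and hsp90 lay above the sum (0.43), so that 3 of 17 heat shock genes lay below and 1 above (median -0.16). That is 23.5% called, near the 26.4% of all genes. In the core stress list, 7 of 18 lay below the sum and 1 above, 44.4% called. These included obr1, a flavodoxin-like oxidoreductase gene (0.97, 0.85 and 0.51, non-additivity -1.30 ± 0.15), tms1 (-0.58 ± 0.088) and cta3, a cation pump gene (-0.41 ± 0.086). Unlike obr1, cta3 was not raised less in S2A/S7A (0.59) than in S2A (0.43) or S7A (0.57). The median of the list was 0.63 in S2A, 0.15 in S7A and 0.20 in S2A/S7A. Between 3 and 14 members lay below the sum under the alternatives, and 11 did without the 3 arrays that stood apart.

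In all, 38 of the 41 reduced genes had moved in S2A and 3 in S7A. The largest after hsp16 were SPCC663.08c (2.45 in S2A, 1.37 in S2A/S7A), caf5 (1.97 and 0.61), and osr1 (2.55 and 1.46). Of the 23 that S2A had lowered, with medians of -1.33 in S2A and -0.86 in S2A/S7A, cox4 and atp5 belong to the respiratory chain and ATP synthase. Nuclear genes named atp, cox, qcr or sdh, grouped after their values were seen, lay above the sum in 12 of 45 and below it in 2 (31.1% called, near the 26.4% of all genes). Their medians were -0.37 in S2A, -0.12 in S7A and -0.26 in S2A/S7A.

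Synergy was seen in most tRNAs of the mitochondrial genome, a group also picked out after its values were seen. Of 25 mitochondrial tRNA genes, 23 lay above the sum and 0 below, beside 13.6% above and 12.8% below over all genes. Their median by array was -0.14, -0.03, -0.04 and 0.11 in S2A, -0.08, -0.17, -0.05 and 0.09 in S7A, and 0.84, 0.81, 0.78, 0.99 and 0.99 in S2A/S7A, and it was 1.00, 0.86 and 0.80 in S7E. S2A/S7A and S7E lay clear of both alanine single mutants on every array. All 25 were raised in S2A/S7A, by 0.48 to 1.11, and they made up 21 of the 40 emergent genes. The serine tRNA SPMITTRNASER.01 was 1.29 ± 0.15 above the sum (adjusted p = 2.26e-05), the glycine tRNA SPMITTRNAGLY.01 1.24 ± 0.11 and the leucine tRNA SPMITTRNALEU.01 1.21 ± 0.12. Between 22 and 24 lay above the sum under each alternative that kept both dye orientations. Of 11 mitochondrial genes for proteins and ribosomal RNA, 4 lay above the sum (36.4% called beside 26.4% of all genes, median 0.25). Of 66 nuclear tRNA genes 0 lay above and 1 below (1.5% called, median 0.034). Slightly raised in S2A/S7A were 33 of these 66 (median 0.25), beside 1813 of all 5163 genes. How much of the RNA of each compartment was recovered and labelled was not measured.

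The lowered emergent genes were 8. ctr4 and ctr5 encode the plasma membrane copper transporter. ctr4 read -1.12, -1.17, -1.15, -1.07 and -1.06 in S2A/S7A, where its arrays agreed closely, and -0.86, -0.59 and -0.36 in S7E. In the single mutants the replicates did not agree: 0.55, 0.52, 0.44 and -0.59 in S2A, and 0.98, 0.80, 0.81 and -0.63 in S7A. ctr5 repeated this, at -0.93 to -0.50 in S2A/S7A, at 0.28, 0.46, 0.39 and -0.66 in S2A and at 0.20, 0.35, 0.25 and -0.87 in S7A. The non-additivity of ctr4 was -1.87 ± 0.33 (adjusted p = 8.46e-04), and -2.49 without the 3 arrays that stood apart. The fitted S7A value of ctr4 was 0.49, under 1.5-fold, while S7A replicates 1 to 3 lay above that size. Its place among the emergent genes thus rests on S7A replicate 4. ctr6, for the vacuolar copper transporter, was near 0 in each strain (non-additivity 0.05), and cuf1, for the copper-responsive activator, was not called (-0.03). hem12, for a step of heme synthesis, was lowered in the same way on every S2A/S7A array (-1.16 to -0.89, against -0.35 to 0.05 in both single mutants).

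The enhanced genes were led by gdh2, which encodes the NAD-dependent glutamate dehydrogenase. It read 1.03, 1.05, 1.20 and 0.94 in S2A, 0.13 to 0.19 in S7A, 2.20, 2.37, 2.30, 2.43 and 2.34 in S2A/S7A and 0.67 to 0.78 in S7E. The groups did not overlap, and S2A/S7A lay 1.10 ± 0.080 above the sum (adjusted p = 4.57e-07). aes1 was raised in both single mutants (0.65 and 0.93) and to 2.26 to 2.92 in S2A/S7A (1.02 ± 0.18; 0.57, adjusted p = 0.0799, with arrays scaled to 1 spread). SPAC186.06 was at 1.11, -0.33 and 1.78 (1.01 ± 0.16). The other members were shu1, SPAC11D3.17, the only lowered one (-1.07 in S2A and -1.41 in S2A/S7A), and the 13 copies of the Tf2 retrotransposon.

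Tf2 copies are nearly identical, so their 13 values may be 1 measurement repeated. Their median by array was 0.34, 0.72, 0.79 and 0.92 in S2A, 0.50, 0.37, 0.77 and -0.47 in S7A, 2.13, 2.08, 1.53, 1.84 and 1.64 in S2A/S7A, and 1.17 to 1.30 in S7E. S2A/S7A lay above every other array. It exceeded the sum by 0.72 to 0.91, for example 0.91 ± 0.24 in Tf2-3 (adjusted p = 0.0127), 0.84 ± 0.22 in Tf2-13 (0.013) and 0.81 ± 0.22 in Tf2-7 (0.0141), and all 13 were called. The call was not stable: 0 were called with arrays scaled to 1 spread (median 0.62) or without S2A/S7A replicates 1 and 2 (0.65), 8 without S2A replicate 1, and 9 without S2A replicate 2, S7A replicate 2 or S2A/S7A replicate 2.

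**Figure D4:**
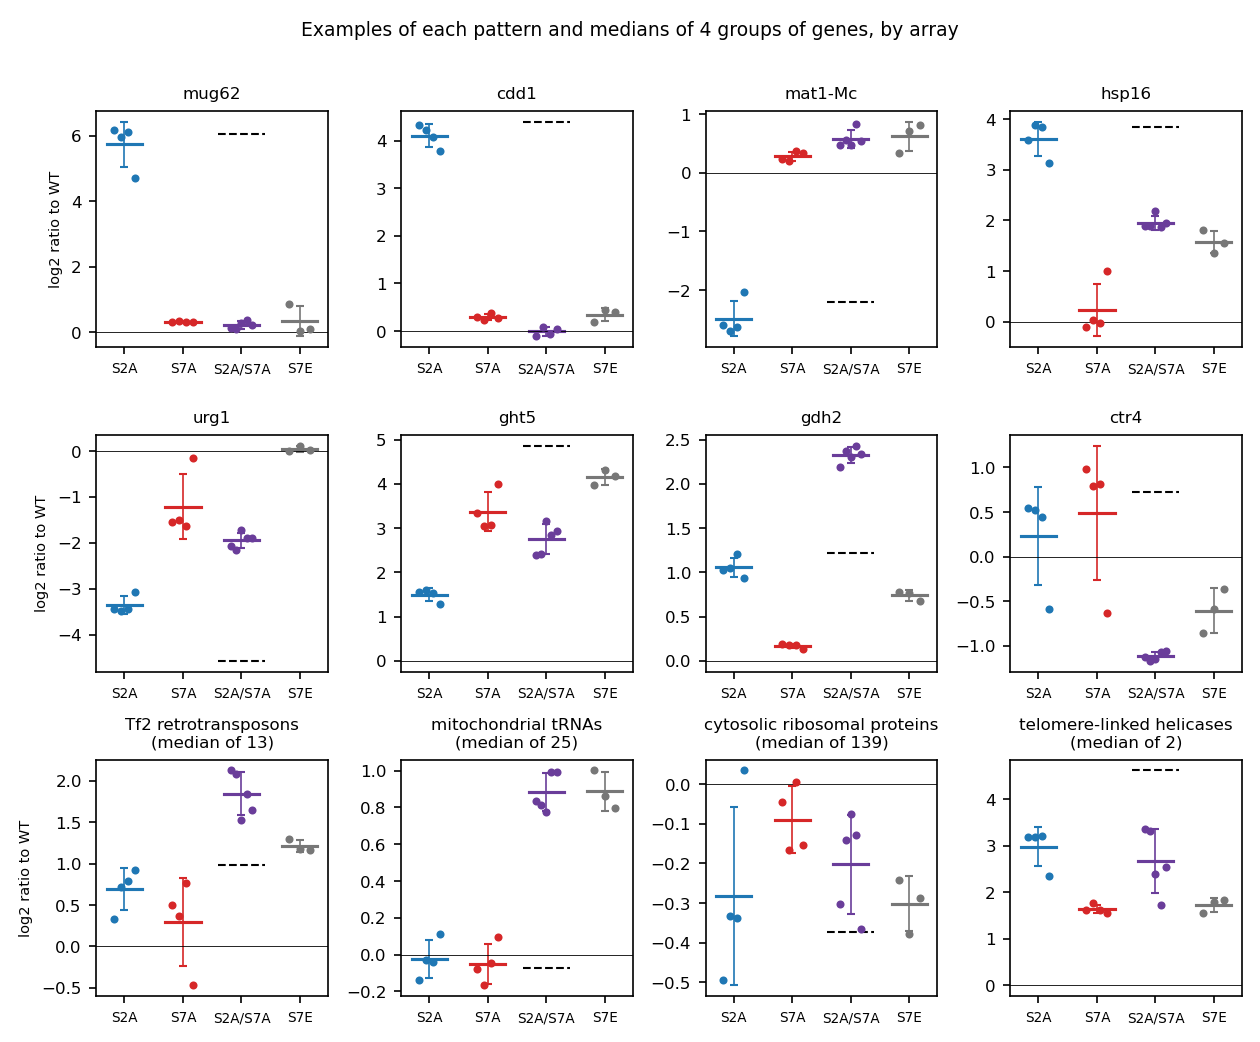
Panels give the log2 ratio to WT of 8 genes and the median of 4 gene groups, with a point per array, the mean as a bar and the SD as an error bar; the dashed line over S2A/S7A is the sum of the S2A and S7A means. S2A/S7A falls to about 0 in mug62 and cdd1 and lies between the single mutants in hsp16, urg1 and ght5. It lies above the sum in gdh2, Tf2 and the mitochondrial tRNAs, and below the sum in ctr4.

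In the list of CTD kinases, phosphatases and elongation factors 3 of 25 lay above the sum and 1 below (16% called beside 26.4% of all genes, median 0.035). rpb1, which carries the altered tail, read 0.69, 0.71, 0.70 and 0.83 in S2A, -0.07 to 0.28 in S7A and 0.15 to 0.45 in S2A/S7A by its exon probe (non-additivity -0.48 ± 0.097, adjusted p = 0.0025). Its 6 junction probes read otherwise, with non-additivity from -0.033 to 0.30 and no call, and over all its probes the value was 0.014. The probe sequences were not used here, so whether a probe overlaps the altered tail was not tested. fcp1 (0.51 ± 0.11; 0.21, adjusted p = 0.0564, over all probes) and ssu72 (0.44 ± 0.10), both CTD phosphatase genes, lay above the sum. eaf6, a histone acetyltransferase subunit gene, was high in both strains with the S7A change and was not called: its exon probe read 2.76 to 3.31 in S7A, 2.64 to 3.53 in S2A/S7A and -0.17 to 0.23 in S2A (non-additivity 0.15 ± 0.21), and its junction probe read 0.079 in S7A. With arrays scaled to 1 spread it was called at -1.29.

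Ribosomal protein genes were slightly lower in S2A, where 78 of 139 fell, beside 1398 of all 5163 genes. Of the 139, 20 lay above the sum and 1 below (15.1% called, beside 26.4% of all genes), with medians of -0.30 in S2A, -0.076 in S7A and -0.20 in S2A/S7A. By array the S2A median was -0.49, -0.33, -0.34 and 0.03, and S2A/S7A lay between -0.37 and -0.07, so the groups overlapped. rps2602 lay 0.95 ± 0.14 above the sum and its junction probe 0.92. rpp40, which the name pattern of the list takes in although the name is that of an RNase P subunit, lay 0.61 ± 0.10 above it, and its 4 junction probes 0.48 to 0.52. For rpp202 the junction probe gave 0.43 and no call.

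Heterochromatin and RNAi genes had 1 member above the sum and 3 below of 20 (20% called, beside 26.4% of all genes). rdp1, the RNA-dependent RNA polymerase gene, was lowered in S7A (-0.94, -0.73, -0.79 and -0.83) and read 0.21 to 0.39 on the 4 measured S2A/S7A arrays (0.76 ± 0.10). dcr1 lay below the sum (-0.52 ± 0.076), as did clr2 (-0.32), whose call was lost without 9 of the 13 arrays in turn, and ago1 (-0.25). Of 25 wtf genes, spore-killer genes in many copies, 5 lay above the sum (20% called), among them wtf10 (0.55), wtf17 (0.34) and wtf2 (0.32). wtf10 and wtf17 lost the call over all probes. Mmi1-targeted meiotic genes had 1 above (ssm4) and 3 below of 12 (33.3% called): mug10 (-0.46), rec8 (-0.34) and spo5 (-0.30), the last pair losing the call without 7 and 9 of the 13 arrays in turn. The probes of rec8 disagreed: over all of them it was -0.07 (adjusted p = 0.599), and its junction 4-5 lay 1.19 ± 0.26 above the sum. MBF targets of the G1/S programme had 0 above and 2 below of 17, 11.8% called beside 26.4% of all genes. These were res1 (-0.34) and res2 (-0.33), whose calls were lost without S2A replicate 2 and without S7A replicate 2. Septation genes had 0 above and rgf3 below (-0.53) of 10, 10% called beside the same 26.4%. Their list median was -0.48 in S2A and -0.75 in S2A/S7A.

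**Figure D5:**
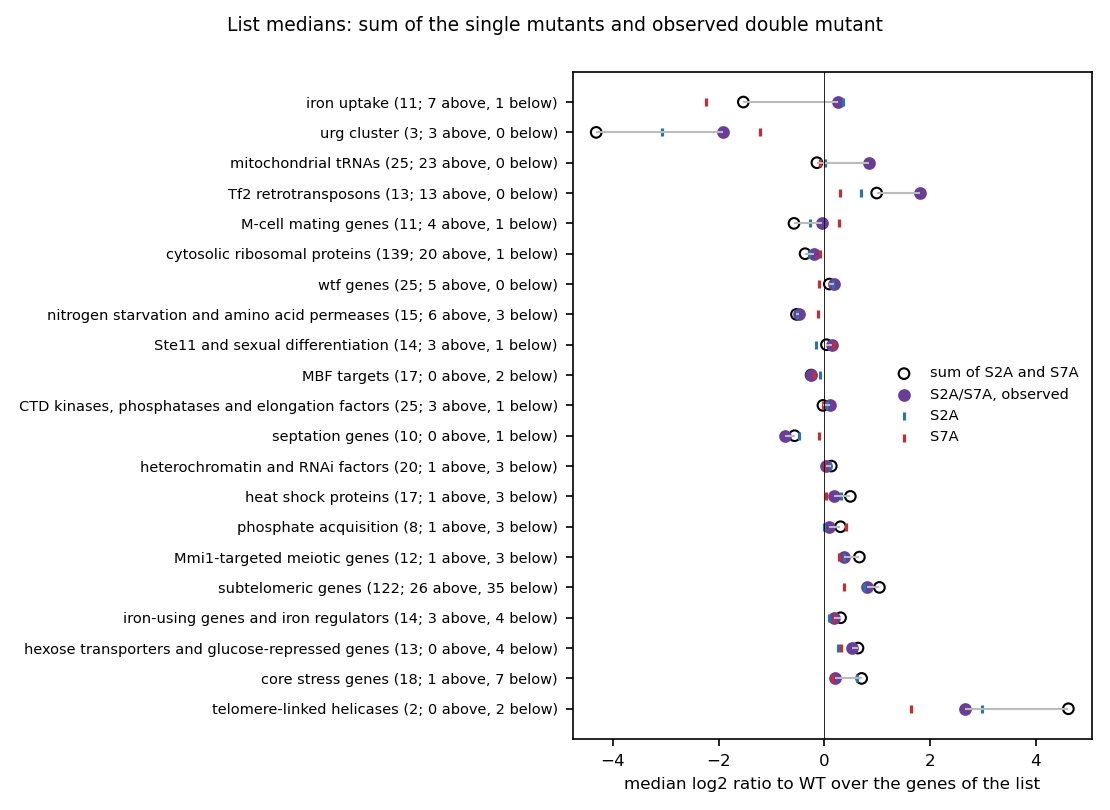
For 21 gene lists the open circle is the median sum of the S2A and S7A log2 ratios, the filled circle the median of S2A/S7A and the ticks the medians of S2A and S7A; the labels give the size of each list and the genes called above and below the sum. Iron uptake, the urg genes, the mitochondrial tRNAs, Tf2 and the telomere-linked helicases show the widest gaps between open and filled circles.

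The arrays also carry intron and exon junction probes, so that splicing can be set against the exon signal. The log2 value of an intron probe minus that of the exons departed from additivity in 445 of 4445 introns (10.0%), 292 higher and 153 lower, and that of a junction in 189 of 4429 (4.27%), 69 higher and 120 lower. Only in 180 of the 445 introns and 106 of the 189 junctions did the probe itself lie further from 0 than the exon value of its gene. The strongest introns, in cdd1 (intron 2, 4.66 ± 0.22) and mug62 (intron 3, 5.51 ± 0.32), and the strongest junctions, in cdd1 (1-2, 4.12 ± 0.20, and 3-4, 4.46 ± 0.22), are the exon changes described above seen from the other side, since the non-additivity of those probes themselves lay between -0.38 and 0.25.

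Elsewhere the intron probe moved. Intron 1 of tcg1, a gene for a telomeric DNA-binding protein, read 3.79, 3.96, 3.82 and 2.62 in S2A as measured, -0.56 to 0.01 in S7A and 0.03 to 0.63 in S2A/S7A. Relative to the exons it was raised in S2A alone, with non-additivity of -2.83 ± 0.21. Intron 3 of SPAC8C9.20 (3.28, 3.25, 3.02 and 1.81 in S2A, 0.20 to 0.97 in S2A/S7A) and intron 2 of SPBC16E9.02c (1.58 to 1.99 and -0.14 to 0.11) showed the same loss. Junction 2-3 of lig4, the gene for DNA ligase IV, read 2.52, 2.77, 2.53 and 2.23 in S2A, 0.13 to 0.43 in S7A and -0.32 to 0.05 in S2A/S7A (-2.62 ± 0.16 relative to the exons). Junction 1-2 of aim19 went the other way. It read 3.02, 2.78, 2.57, 2.27 and 2.09 in S2A/S7A and -0.52 to -0.02 in both single mutants, 2.98 ± 0.21 above the sum, and -0.28 to -0.02 in S7E. Intron 2 of ppm1 was low in S7A (-1.75 to -1.58) and less low in S2A/S7A (-0.70 to -0.46), beside -0.14 to 0.07 in S2A (1.09 ± 0.10).

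A junction probe was available for 91 of the 390 genes at least 1.5-fold from additivity. Its mean non-additivity had the sign of the exon value in 88 of these and was at least 1.5-fold in 48. The other 299 genes rest on exon or RNA probes. In mpn1, for an exonuclease that trims U6 RNA, the probes disagreed. The exon probe read -2.53 to -2.32 in S7A and -0.04 to 0.41 in S2A/S7A (non-additivity 1.53 ± 0.11), its junctions 1-2 and 3-4 had non-additivity of 0.78 and 0.91, and junction 2-3 of -0.05. The labels place the mutant in Cy5 on 6 of the 13 arrays and in Cy3 on 7. Fitted apart, the 2 dye orientations gave the same sign in 386 of 386 genes of the 390 that both measured, and at least 1.5-fold in both for 227. The same sign is favoured in advance, because the 390 were called on these same arrays.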

How the data were processed

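The authors deposited 1 value for each probe of 16 two-colour Agilent arrays, taken as log2 of mutant over WT from the array design per the labels. Their normalization is not stated by the labels and headers used. Array medians were between -0.0265 and 0.0267. The table held 15207 probes, 5097 of them for exons, and 11445 missing values. Names came from a reference table on assembly ASM294v3, used for names and gene order only, in which 5094 of 5195 IDs matched.

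limma (version 3.58.1, R 4.3.3) was run over the 16 arrays with a mean for each genotype and, for each gene, a term for the dye (lmFit, eBayes). A gene needed 2 measured arrays per genotype, which left 5163 genes, including 121 non-coding RNAs. The contrast was S2A/S7A minus S2A minus S7A, two-sided, adjusted by Benjamini-Hochberg. Its SE is approximate for genes with missing values. The fit was tested on simulated data. Alternatives were run for this contrast only.

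The comparison, the classes and the gene lists were chosen with earlier results of these data known. Named genes are the 4 furthest from additivity in each class but the small one, up to 3 called members of each list with the smallest p, the 3 introns and 3 junctions with the smallest p, and rpb1, pho1, ste11, mei2, str1, fio1, tlh1, tlh2 and eaf6. Other named genes were chosen after their values were seen. The groups of tRNAs, mitochondrial genes, small nucleolar RNAs and respiratory genes, and the alternatives with 1 dye orientation or without S2A/S7A replicates 1 and 2, were also chosen after seeing the data.

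Same-numbered replicates did not deviate together for every number (all pairs of replicates 2 and 4 correlated above 0.1, but not all those of 1 and 3; correlations of deviations from -0.22 to 0.41, median 0.115, in 12 pairs, against a median of -0.019 in 44 pairs with different numbers), so replicate numbers were not taken as pairs. Probe sequences were not used here, so near-identical copies cannot be told apart.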

Additional observations from a re-analysis of the deposited data

Results flagged for a closer look

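Across the named genes, 37 of 228 groups of 4 or 5 arrays held 1 array far from the others by Dixon's criterion, which chance meets in about 1 in 20 groups. S2A replicate 4 accounted for 19 of these and S7A replicate 4 for 10. In S2A replicate 4 the log2 ratios that stood apart were SPAC27D7.11c (1.771, others 2.18 to 2.20), SPCC663.08c (1.917, others 2.59 to 2.67), alr2 (-1.206, others -3.58 to -3.30), caf5 (1.136, others 2.20 to 2.31), ctr4 (-0.59, others 0.44 to 0.55), hem1 (-0.557, others -0.22 to -0.15), mat1-Mc (-2.041, others -2.70 to -2.59), mat3-Mc (-2.066, others -2.87 to -2.73), mei2 (-1.014, others -0.72 to -0.69), mug62 (4.705, others 5.96 to 6.18), obr1 (0.585, others 1.06 to 1.11), osr1 (2.061, others 2.65 to 2.75), pho1 (0.256, others 0.90 to 0.98), psi1 (0.528, others 1.35 to 1.42), rpb1 (0.832, others 0.69 to 0.71), str3 (-0.515, others -1.08 to -1.06), tlh1 (2.372, others 3.15 to 3.22), tlh2 (2.316, others 3.15 to 3.22) and urg1 (-3.061, others -3.49 to -3.43).

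In S7A replicate 4 they were alr2 (-0.223, others -2.02 to -1.88), ctr4 (-0.634, others 0.80 to 0.98), fip1 (-1.704, others -2.77 to -2.66), hsp16 (0.999, others -0.11 to 0.04), hsp78 (0.43, others 0.07 to 0.11), mfm2 (1.278, others 0.16 to 0.35), nrg1 (-0.669, others -2.06 to -1.84), str1 (-3.313, others -4.68 to -4.46), str3 (-1.528, others -3.20 to -3.06) and urg1 (-0.153, others -1.64 to -1.50). S2A replicate 1 stood apart for SPMITTRNALEU.01 (-0.334, others -0.19 to -0.17) and wtf10 (0.193, others -0.01 to 0.02). S2A/S7A replicate 3 stood apart for hsp16 (2.185, others 1.86 to 1.94) and put4 (-1.466, others -1.91 to -1.79). S2A/S7A replicate 4 stood apart for mat1-Mc (0.828, others 0.47 to 0.57). S7A replicate 1 stood apart for dcr1 (-0.033, others 0.10 to 0.12) and eaf6 (3.312, others 2.76 to 2.80). S7A replicate 2 stood apart for res2 (0.449, others 0.29 to 0.31).

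In ctr4 the fourth replicates of both single mutants lay below WT while their other arrays lay above it. In rpb1, hem1 and mei2, S2A replicate 4 was further from WT than the other S2A arrays, and in the rest of its genes it was nearer to WT or, in ctr4, of the other sign. The contrast is also the test of whether the difference made by the serine 7 change was unequal with and without the S2A change, and 1363 genes passed it. A difference from WT shared by all strains cannot be told apart from this in genes that moved alike in both single mutants.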

How the results depend on the processing

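The 1363 non-additive genes became 2541 with array weights, 2101 without the 3 arrays that stood apart and 14 with only the arrays that carry the mutant in Cy5, and lay between 981 and 1823 without single replicates. Those of at least 1.5-fold (390) became 596 with arrays scaled to 1 spread and 14 with Cy5 alone. Replicate numbers were not taken to pair the samples, and with the replicate number as a block 1212 genes, 273 introns and 116 junctions were non-additive. The 445 introns became 927, and the 189 junctions 292, without the 3 arrays; without single replicates they ranged from 227 to 522 and from 88 to 221, and both were lowest without S7A replicate 2. Introns fell by more than 1.5-fold also without S7A replicate 1 (278), S2A replicate 2 (274) or 3 (264), or S2A/S7A replicate 3 (272), and junctions without S7A replicate 1 (124). With 2-fold in place of 1.5-fold, 6 genes were emergent, 4 enhanced, 2 masked, 43 suppressed, 17 shared, 12 reduced and 21 small. With Cy5 alone 0 were emergent, 1 enhanced, 1 masked, 0 reversed, 11 suppressed, 1 shared, 0 reduced and 0 small; with Cy3 alone 9 were enhanced and 7 reversed. Fewer arrays enter these 2 fits. All 3 arrays that stood apart had the mutant in Cy5, and S2A replicate 4 and S7A replicate 4 are in the Cy5 fit. Dye orientation and these arrays cannot be told apart here, and whether they lowered the Cy5 counts was not tested. eaf6 reversed to -1.29 with arrays scaled to 1 spread, and rpb1 to 0.014 over all probes; the cause was not tested. Of 74 called named genes, 57 kept the call and direction under all 26 alternatives other than the single dye orientations. The other 17 lost the call under at least 1 of them. All 74 kept their sign with Cy5 alone and with Cy3 alone, which a call over the same arrays favours. Over all probes, introns included, cdd1 moved to -0.81, mug62 to -1.94, mfm2 to 1.59, rpp202 to 0.92, rpp40 to 0.35, mug10 to -0.28 and SPAC3G6.05 to -0.41, all still called, whereas fcp1 (0.21), wtf10 (0.25), wtf17 (0.03) and res1 (-0.28) lost the call, as did rec8 and ste4. clr2 lost its call without S7A replicates 1, 2 or 3, S2A replicates 2, 3 or 4, or S2A/S7A replicates 3, 4 or 5. The alternatives were not applied to the differences of S2A/S7A from each single mutant.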
